A study of Mus musculus with 4 samples.

Results

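Mural cells are the cells of the vessel wall outside the endothelium: pericytes on capillaries, and smooth muscle cells around arteries and arterioles. The genes described here are 7 of the 383 on a multiplexed error-robust fluorescence in situ hybridization (MERFISH) panel, and they were taken by name. Rgs5, Pdgfrb and Vtn are used as pericyte genes, Acta2, Myl9 and Cald1 as smooth muscle genes, and Pdgfb encodes the ligand of the receptor that Pdgfrb encodes. All 7 were detected in every section. The data were 4 thin coronal brain sections that included the striatum, 2 of Young mice at 2 months and 2 of Aged mice at 18 months. The mice were C57BL/6NTac with no transgene or treatment. The study used both sexes without giving the sex of each section. It counted each section as 1 mouse, whereas the sample labels name no animal, so the p-values speak for these sections only. The tests of single genes pool the spread between sections over genes, so a gene's own spread enters its p-value only in part. The questions were how the mural genes divide between pericyte-side and smooth muscle-side cells, where Pdgfb transcripts lie, and whether any of these genes changed from 2 to 18 months.

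Endothelial cells secrete the platelet-derived growth factor encoded by Pdgfb, and mural cells carry its receptor. During vessel growth this signal recruits pericytes to the capillary wall and keeps them there. Pericytes then share a basement membrane with the endothelium, while arterial smooth muscle cells carry the actin and myosin machinery that sets vessel calibre. Transcription of many contractile genes is known to run through serum response factor, which binds a DNA element called the CArG box.

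The promoters of Acta2, Myl9 and Vtn are shown because Acta2 and Myl9 were the genes higher in smooth muscle-leaning cells below and Vtn had the widest difference on the pericyte side. Each window runs from 250 bases before to 50 bases after the RefSeq transcription start on mouse build GRCm38.p6, written 5′ to 3′ on the gene's own strand. Capitals mark CArG boxes, searched on both strands as 10 bases in which at most 1 of the 6 middle bases was neither A nor T. Acta2, whose window is chr19:34255324-34255623 on the minus strand, held 2 such elements, starting 84 and 34 bases before the start. Myl9, whose window is chr2:156775214-156775513 on the plus strand, held 2, starting 161 and 99 bases before the start, and the first was an exact match with 6 A or T bases. Vtn, whose window is chr11:78498870-78499169 on the plus strand, held 0, as did the windows of Rgs5 and Cald1, which says only that these letters were not in those windows. Of 32851 RefSeq promoter windows of 300 bases, 9.98% held at least 1 such element, 0.822% held at least 2 and 1.63% held an exact one.
Acta2: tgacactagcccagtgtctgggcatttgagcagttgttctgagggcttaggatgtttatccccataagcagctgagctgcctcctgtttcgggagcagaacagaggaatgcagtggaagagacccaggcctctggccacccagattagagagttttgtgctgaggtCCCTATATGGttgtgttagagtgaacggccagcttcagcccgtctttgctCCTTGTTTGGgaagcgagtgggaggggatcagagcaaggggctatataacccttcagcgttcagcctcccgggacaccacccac
Myl9: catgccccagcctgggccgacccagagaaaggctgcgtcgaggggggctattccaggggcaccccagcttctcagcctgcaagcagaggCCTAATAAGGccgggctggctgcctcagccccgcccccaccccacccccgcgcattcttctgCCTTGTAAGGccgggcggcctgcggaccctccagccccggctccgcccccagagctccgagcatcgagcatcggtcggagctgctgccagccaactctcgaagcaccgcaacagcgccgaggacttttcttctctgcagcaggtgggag
Vtn: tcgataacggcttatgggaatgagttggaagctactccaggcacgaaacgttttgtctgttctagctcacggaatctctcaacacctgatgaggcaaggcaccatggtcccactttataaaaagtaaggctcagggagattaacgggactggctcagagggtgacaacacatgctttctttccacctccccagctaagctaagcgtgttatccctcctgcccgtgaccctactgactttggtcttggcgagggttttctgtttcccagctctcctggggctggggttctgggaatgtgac

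After removal of cells with fewer than 10 genes or under 50 cubic micrometres, 68011 to 74624 cells per section remained of 73872 to 88584 segmented, and no cell identifier was shared between sections. The kept cells held 18765491 to 36035355 transcripts per section, with a median per cell of 400, 325, 215 and 293 in Young 1, Young 2, Aged 1 and Aged 2, the order in which all values are given. Aged 1 was the shallowest section, and in mural-like, endothelial-like and microglia-like cells it was also the lowest of the 4 for Pdgfrb and Pdgfb. Cells were clustered without the 7 genes, so that none of them decided which cells were grouped together. The cluster called mural-like was then named by the fold of the 6 mural genes in it. Cells that carried at least 3 markers of another class were left out as mixed. This left 815, 923, 941 and 901 mural-like cells and 2356, 2587, 2664 and 2730 endothelial-like cells. The share left out was 47.5%, 44.2%, 41.3% and 44.0% of mural-like and 55.2%, 53.3%, 45.3% and 49.2% of endothelial-like cells. In both classes it was lower in both Aged sections than in either Young one. The rule counts detected markers, so it can depend on depth, which was not tested.

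Both classes were named from marker lists, and the mural list was the 6 mural genes. The sums below therefore describe the classes and do not test their names. The 12 endothelial markers summed to 1447 to 1508 transcripts per 10000 in endothelial-like cells and to 506 to 572 in mural-like cells. The 6 mural genes summed to 2157 to 2474 per 10000 in mural-like cells and to 397 to 435 in endothelial-like cells. Mural-like cells also carried more of 6 fibroblast markers (247 to 275 per 10000 against 57.0 to 76.9) and of 6 arterial markers (134 to 184 against 38.5 to 61.7). Acta2 and Myl9 were among the 3 genes with the highest fold over all other cells of the same round of clustering, with Ano1, a chloride channel gene, between them. A level is the number of transcripts of a gene per 10000 transcripts of the panel. MERFISH probes differ in number between genes, so a level compares cells and sections for 1 gene and was never set against the level of another gene. Levels by class describe clusters and carry no test.

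Rgs5 encodes a regulator of G-protein signalling that is abundant in pericytes. Its level in mural-like cells was 624, 777, 655 and 865 per 10000, and in endothelial-like cells 255, 299, 277 and 281. The mural-like cells used, 1.27% of all kept cells, held 10.6% of all Rgs5 transcripts, and the endothelial-like cells used, 3.67% of kept cells, held 11.2%. With mixed cells kept, these classes were 2.28% and 7.47% of cells and held 29.1% and 35.7% of Rgs5. Rgs5 was the only mural gene of which endothelial-like cells held more than mural-like cells. At least 1 Rgs5 transcript was seen in 70.2%, 72.7%, 71.0% and 77.6% of mural-like cells. When mural-like cells were thinned to 51 transcripts, which left out 132, 167, 230 and 173 shallower cells, these shares were 70.0%, 72.2%, 73.8% and 78.8%.

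Vtn encodes vitronectin, an adhesive matrix protein. Its level was 421, 401, 574 and 544 per 10000 in mural-like cells and 61.8, 57.8, 57.2 and 44.8 in endothelial-like cells. The mural-like cells used held 20.3% of all Vtn transcripts, or 46.2% with mixed cells kept. In mural-like cells both Aged sections lay above both Young sections.

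Pdgfrb encodes PDGF receptor beta, the receptor through which Pdgfb acts. Its level in mural-like cells was 183, 153, 87.9 and 175 per 10000, so Aged 1 lay far below the other 3 sections. In endothelial-like cells it was 24.0, 17.1, 8.95 and 14.1. The mural-like cells used held 12.1% of all Pdgfrb transcripts and the endothelial-like cells used 3.67%, or 29.9% and 13.9% with mixed cells kept. Astrocyte-like cells, of which no cell was left out as mixed, held 25.6%. The Pdgfrb level in astrocyte-like cells was 37.4, 27.7, 19.5 and 30.5 per 10000.

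Astrocyte end-feet lie against mural cells, so Pdgfrb in astrocyte-like cells was also read in cells with no transcript of the other 5 mural genes. Of 4110, 4401, 3911 and 4319 such cells, 55.2% (exact 95% interval 53.7 to 56.8), 43.4% (42.0 to 44.9), 30.6% (29.2 to 32.1) and 47.6% (46.1 to 49.1) had a Pdgfrb transcript. Oligodendrocyte-like cells chosen the same way gave 4.51%, 2.97%, 1.85% and 3.28%. Vtn in astrocyte-like cells without the other 5 mural genes stood at 0.862%, 0.480%, 2.13% and 0.876%. Pdgfrb was therefore far more frequent in astrocyte-like cells than in oligodendrocyte-like cells in every section, and Vtn was rare in the same class.

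Acta2 encodes smooth muscle actin, Myl9 a regulatory light chain of myosin, and Cald1 caldesmon, an actin-binding regulator of contraction. The Acta2 level was 504, 549, 390 and 396 per 10000 in mural-like cells and 2.96, 2.19, 3.34 and 3.51 in endothelial-like cells. Of the 7 genes Acta2 had the largest share of its transcripts in mural-like cells, 29.9% in the cells used and 72.3% with mixed cells kept. The Myl9 level was 345, 325, 285 and 277 in mural-like cells and 23.2, 22.2, 16.3 and 18.5 in endothelial-like cells, and the mural-like cells used held 20.5% of its transcripts, or 52.9% with mixed cells kept. For both genes the Aged mural-like sums lay below the Young ones. The Cald1 level was 189, 192, 164 and 217 in mural-like cells and 36.5, 36.6, 34.2 and 37.9 in endothelial-like cells. Cald1 was spread more widely, with 11.4% of its transcripts in the mural-like and 6.03% in the endothelial-like cells used, or 28.5% and 19.3% with mixed cells kept.

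**Figure D1:**
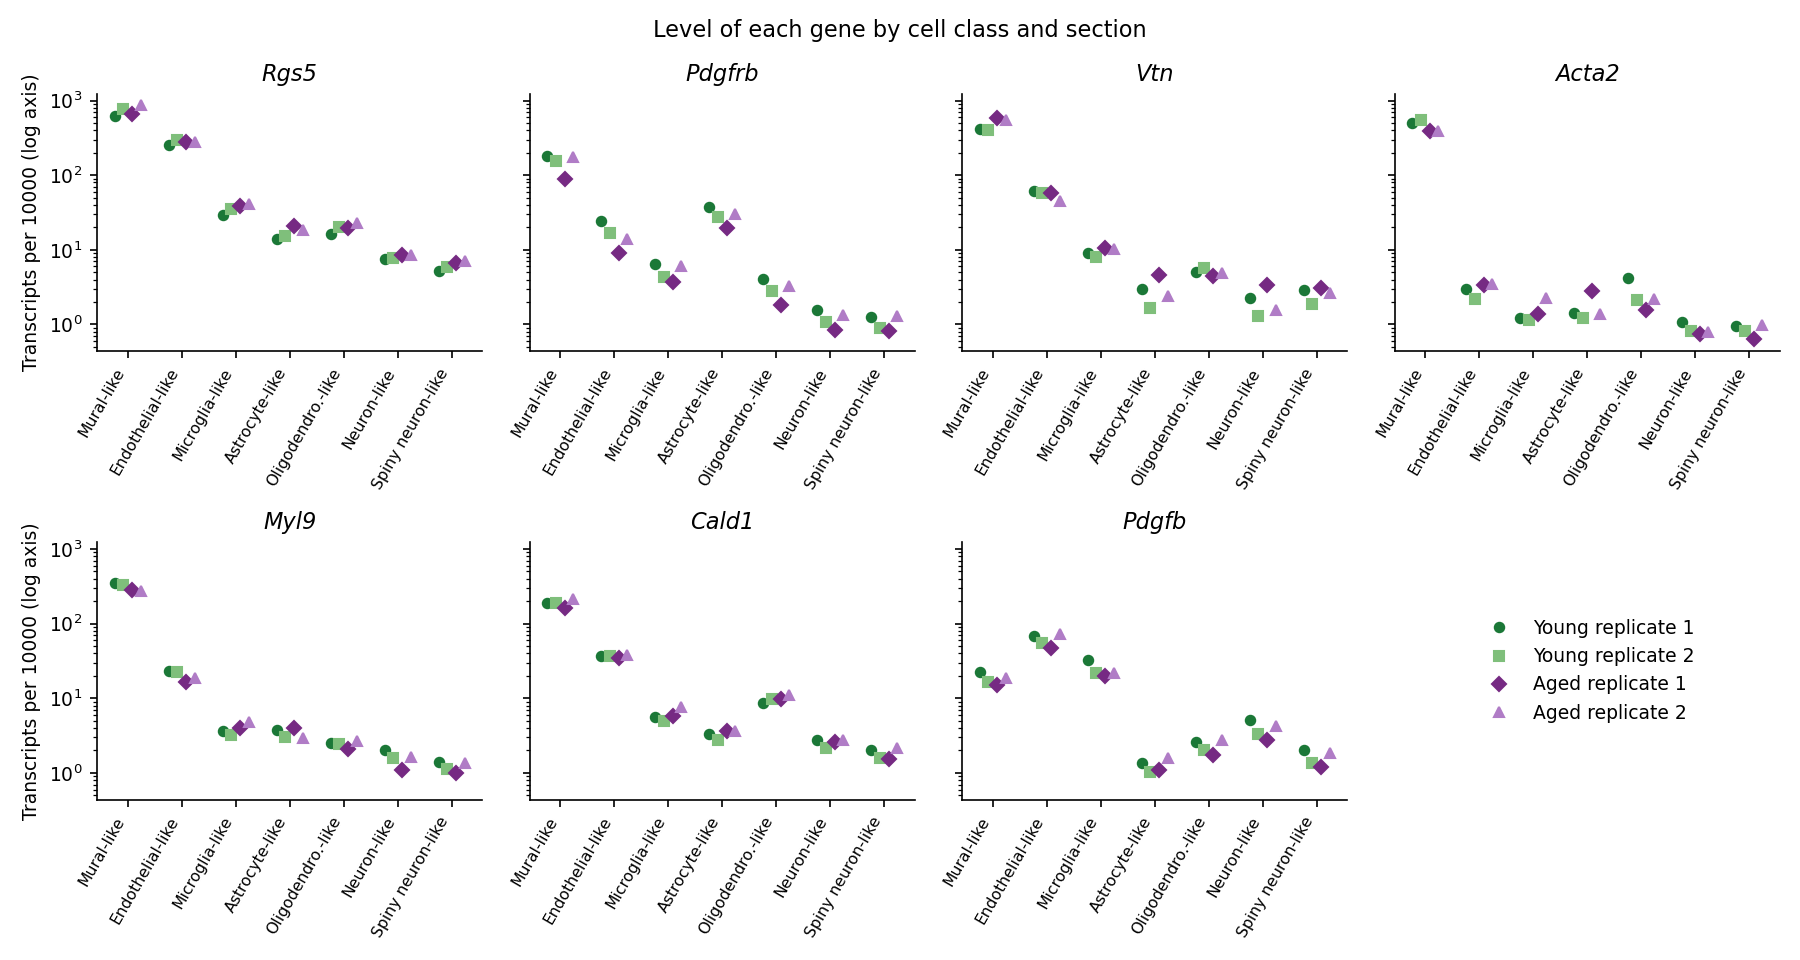
Level of each gene in transcripts per 10000 of the panel (log axis) in 7 cell classes, 1 symbol per section. Mixed cells are left out of the mural-like and endothelial-like classes only. The 6 mural genes, from which the mural-like cluster was named, peak in mural-like cells in all 4 sections. Pdgfb peaks in endothelial-like cells with microglia-like cells next, and Pdgfrb rises again in astrocyte-like cells.

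Over 11 clusters in 4 sections (44 points, which share sections and depth), the genes whose levels were most like those of each gene were found by Pearson r of log2(level + 1), as a description. For Acta2 they were Myl9 (r = 0.928), Cald1 (0.870) and Vim (0.861). For Myl9 they were Cald1 (0.935), Cp (0.933) and Acta2 (0.928), and for Cald1 they were Tpm4 (0.951), Cp (0.940) and Myl9 (0.935). The 3 contractile genes were thus near one another. The pericyte genes were less so, at 0.71 for Rgs5 and Pdgfrb, 0.79 for Rgs5 and Vtn and 0.77 for Pdgfrb and Vtn. Vtn was nearer to Myl9 (0.908) and Cald1 (0.843). Rgs5 was most like Adgrf5 (0.958), Esam (0.906) and Abcb1a (0.881), which are endothelial markers on this panel. Vtn was most like Itga1 (0.954), Cnn2 (0.930) and Slfn5 (0.909). Pdgfrb was most like Vcam1 (0.880), Timp3 (0.837) and Id3 (0.827). Pdgfb was most like Parp14 (0.860), Nostrin (0.847) and Slfn5 (0.840). The points include a cluster of 729 cells in which the Acta2 level ran from 0 to 578 per 10000 between sections.

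To ask how mural-like cells divide, each was scored by its mean standardized expression of the smooth muscle genes minus that of the pericyte genes, with the gene under test left out of the score. Cells above 0 are called smooth muscle-leaning and the rest pericyte-leaning. The score is a range, not a type, and 6.98% to 16.0% of the 3580 cells lay within 0.25 of the boundary. Counts were summed per section and leaning and compared by the quasi-likelihood test of edgeR with the section as a block. This divide runs through much of the panel, since between 67.0% and 72.9% of genes tested were called, so the size and direction of each gene say more than its being called. All 6 mural genes were called, and 5 of them went to the side of their own list. Where a gene is said not to overlap between the leanings, this is a description only. The share of all genes without overlap was not counted.

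Acta2, divided without its own counts, had levels of 1093, 1141, 802 and 918 per 10000 in smooth muscle-leaning cells and 86.0, 59.4, 69.8 and 62.5 in pericyte-leaning cells. The groups were far apart in every section. The log2 fold difference was 3.82 (SE 0.12, adjusted p = 6.2e-22 by edgeR), the second largest in absolute size of 285 genes tested, of which 67.0% were called. Myl9 stood at 547, 494, 442 and 421 against 181, 170, 162 and 185, again without overlap. Its log2 difference was 1.36 (SE 0.09, adjusted p = 1.82e-08 by edgeR), rank 96 of 288, with 72.9% called.

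Cald1 went the other way. Its level was 159, 157, 137 and 163 in smooth muscle-leaning cells and 216, 224, 186 and 251 in pericyte-leaning cells. The log2 difference was -0.52 (SE 0.08, adjusted p = 0.000162 by edgeR), rank 186 of 287, with 71.8% called. Cald1 was therefore lower, by a modest amount, in the cells that were rich in Acta2 and Myl9.

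On the pericyte side, Vtn showed the widest difference, at 71.6, 64.4, 194 and 101 per 10000 in smooth muscle-leaning cells against 675, 672, 911 and 813 in pericyte-leaning cells. The log2 difference was -2.97 (SE 0.15, adjusted p = 1.34e-09 by edgeR), rank 4 of 284, with 69.7% called. Aged 1 had the highest Vtn on both sides. Pdgfrb stood at 62.1, 47.9, 24.9 and 56.2 against 285, 245, 130 and 243, a log2 difference of -2.28 (SE 0.10, adjusted p = 1.33e-12 by edgeR), rank 27 of 292, with 70.2% called. Rgs5 stood at 278, 385, 329 and 382 against 929, 1165, 947 and 1187, a log2 difference of -1.75 (SE 0.11, adjusted p = 4.73e-18 by edgeR), rank 44 of 285, with 72.6% called. None of these 3 genes overlapped between the leanings, and Rgs5 kept the highest relative level in smooth muscle-leaning cells.

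**Figure D2:**
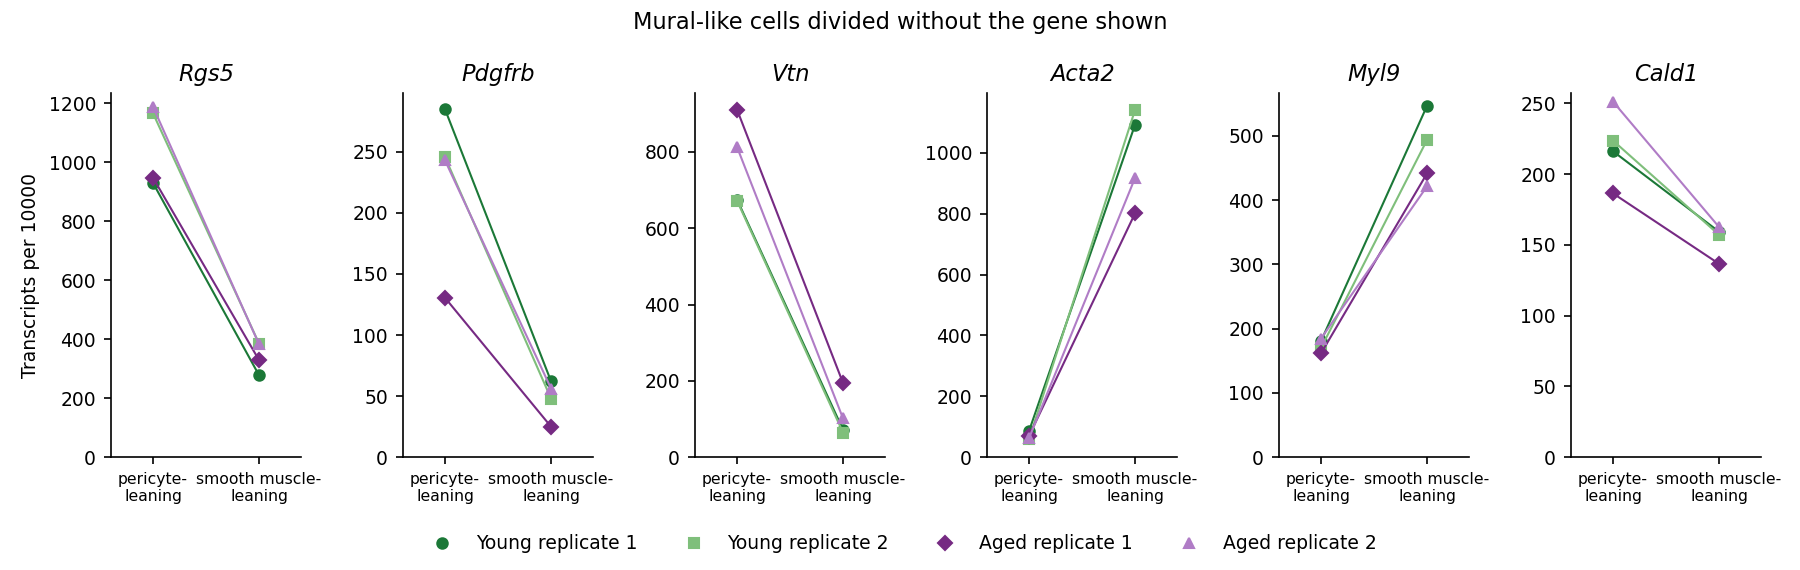
Transcripts per 10000 of each mural gene in pericyte-leaning and smooth muscle-leaning mural-like cells, each gene divided without its own counts, with 1 line per section. Lines fall for Rgs5, Pdgfrb, Vtn and Cald1 and climb for Acta2 and Myl9 in all 4 sections.

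Other transcripts differed along with the score. Smooth muscle-leaning cells held 237 to 314 transcripts per 10000 of the arterial list against 63.5 to 75.2 in pericyte-leaning cells, 307 to 338 of the fibroblast list against 190 to 220, and 588 to 663 of the endothelial list against 437 to 498. Pdgfb was also higher in smooth muscle-leaning cells, at 31.3, 20.5, 19.1 and 23.2 per 10000 against 15.5, 12.9, 11.9 and 15.8 with all 6 genes in the score. Pdgfb was called in each of the 6 fits, with log2 differences from 0.56 to 0.97 and a largest adjusted p of 0.00128 by edgeR. The part that endothelial transcripts play in this Pdgfb difference was not tested.

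Cells were also ordered by their own Acta2 transcripts, and the other genes were read per 10000 transcripts without Acta2. Of mural-like cells, 54.5%, 52.9%, 57.0% and 60.3% had 0 Acta2 transcripts, and 21.8%, 23.7%, 14.2% and 18.3% had 10 or more (exact 95% intervals of at most 3.48 points to either side). Vtn went from 736, 740, 956 and 853 in the cells with 0 to 75.2, 46.6, 59.8 and 98.6 in the cells with 10 or more. Myl9 went from 170, 156, 144 and 171 to 752, 708, 676 and 611. Both genes thus changed severalfold along the Acta2 bins in every section, in opposite directions. Rgs5 went from 891, 1136, 934 and 1173 to 283, 337, 237 and 341, and Pdgfrb went from 285, 244, 131 and 246 to 80.8, 65.8, 34.7 and 76.1. Cald1 was 214, 222, 185 and 252 in the first bin and 204, 195, 168 and 197 in the last. It was lower in between in every section, at 142, 168, 104 and 193 in the cells with 1 to 2 and 154 to 163 in those with 3 to 9. The cells in between were also the shallowest, with median depths of 51.5 to 92 transcripts. Medians were 101 to 124 in the first bin and 150 to 186 in the last. The part of depth in these patterns was not tested.

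**Figure D3:**
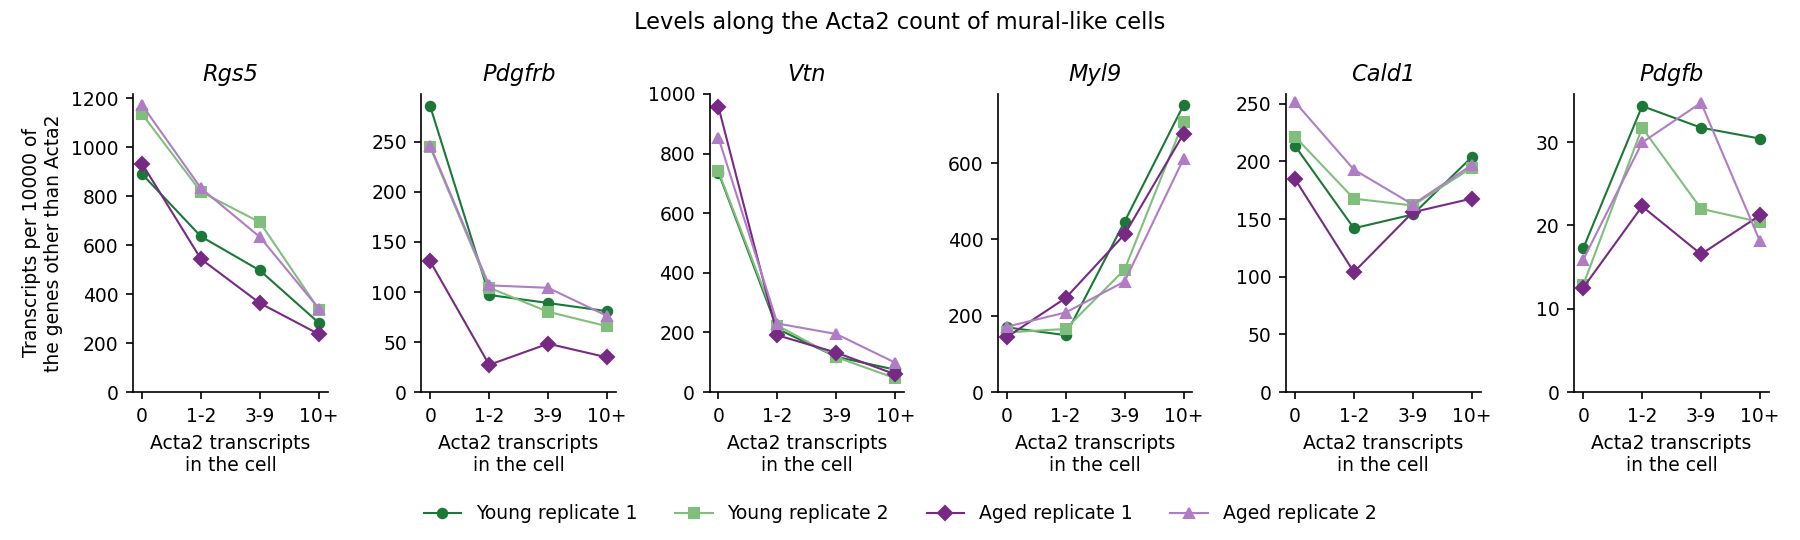
Levels of the other mural genes (transcripts per 10000, Acta2 left out of the total) in mural-like cells with 0, 1 to 2, 3 to 9 and 10 or more Acta2 transcripts, 1 line per section. Vtn, Rgs5 and Pdgfrb fall from the first bin to the last, Myl9 climbs, and Cald1 is lowest in the middle bins, whose cells are also the shallowest.

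The leanings had different arrangements in the tissue. The median distance from a smooth muscle-leaning cell to the nearest other one was 9.88, 12.4, 12.7 and 17.6 µm, whereas from a pericyte-leaning cell to the nearest other one it was 135, 129, 123 and 126 µm. Within 20 µm, 70.5%, 69.2%, 63.4% and 53.2% of smooth muscle-leaning cells had another of their kind, against 4.04%, 3.17%, 4.40% and 4.86% of pericyte-leaning cells. Smooth muscle-leaning cells therefore lay in tight groups and pericyte-leaning cells lay apart, in every section. The median distance to the nearest endothelial-like cell was 35.1, 41.7, 41.7 and 34.0 µm from pericyte-leaning cells and 54.6, 62.8, 61.3 and 58.2 µm from smooth muscle-leaning cells. For oligodendrocyte-like cells, taken as a class with no known place on the vessel, it was 41.4, 44.7, 47.0 and 45.0 µm, and for microglia-like cells 38.7, 39.1, 41.6 and 39.7 µm. Pericyte-leaning cells were thus nearer than microglia-like cells in Young 1 and Aged 2 only. Mixed cells were left out of the mural-like cells here. The nearest endothelial-like cell was sought among all cells of that class, mixed ones included. No oligodendrocyte-like or microglia-like cell was left out as mixed.

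**Figure D4:**
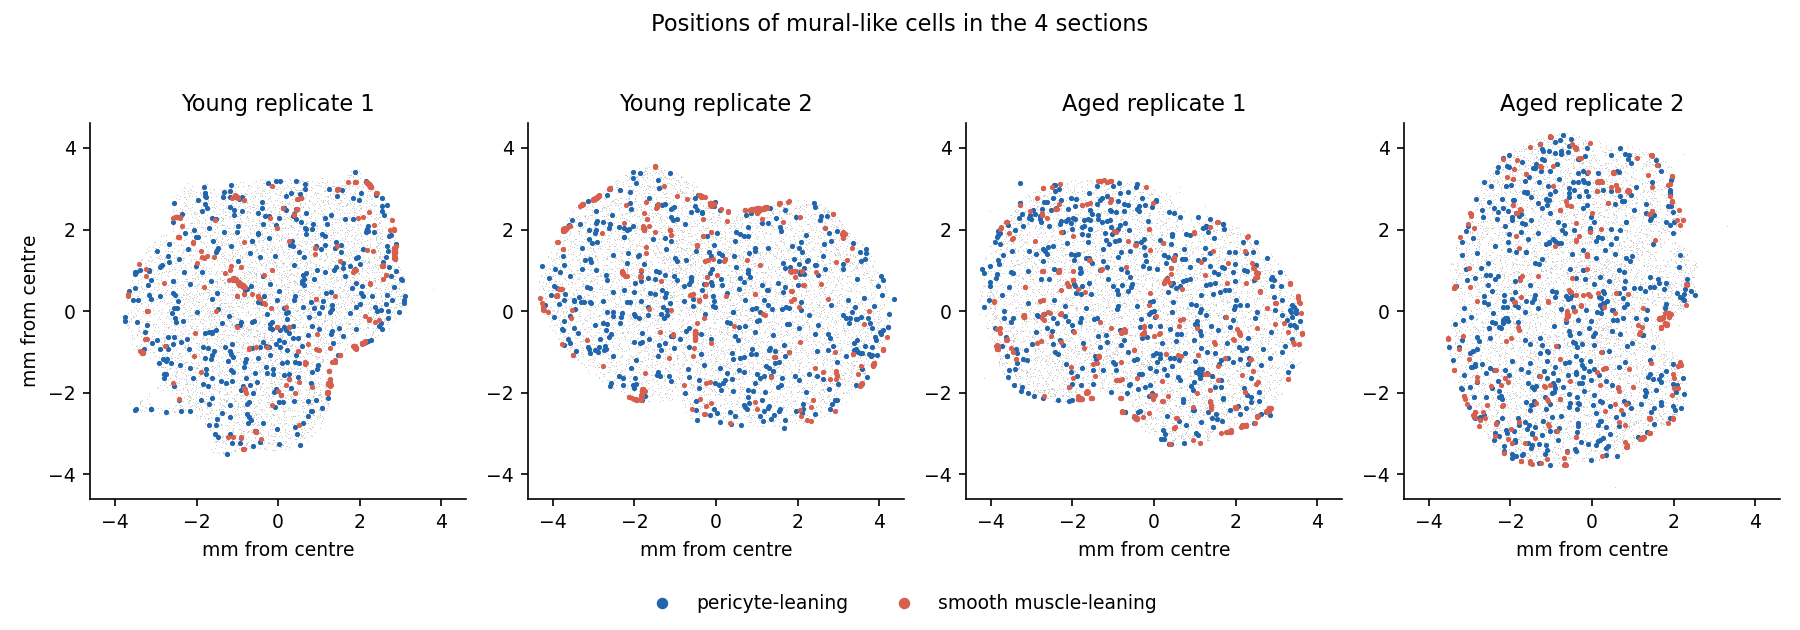
Positions of pericyte-leaning (blue) and smooth muscle-leaning (red) mural-like cells in the 4 sections, in mm from the section's centre, over a sample of all kept cells (grey). Smooth muscle-leaning cells lie in clumps, and pericyte-leaning cells are scattered across the section.

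Pdgfb transcripts were densest in endothelial-like cells. Pdgfb, annotated at chr15:79995874-80014977 on the minus strand of GRCm38, had a level of 68.2, 55.3, 46.9 and 73.6 per 10000 there and 22.6, 16.5, 14.98 and 18.6 in mural-like cells. Young and Aged values overlapped in both classes. The endothelial-like cells used held 13.3% of all Pdgfb transcripts and the mural-like cells used 1.41%, or 34.8% and 4.48% with mixed cells kept. Neuron-like cells, 35.5% of kept cells, held 35.7%.

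A Pdgfb transcript was seen in 53.7%, 45.3%, 34.2% and 53.4% of endothelial-like cells, with median depths of 127.5, 112, 87 and 107 transcripts per cell. Thinned to 49 transcripts per cell, which left out 340, 430, 646 and 506 shallower cells, the shares were 26.4%, 22.4%, 19.6% and 30.0%. As a background, oligodendrocyte-like cells thinned to 79 transcripts gave 1.93%, 1.32%, 1.24% and 1.69%. Pdgfb was thus above the background class in every section at a lower depth. In mural-like cells thinned to 51 transcripts, a Pdgfb transcript was seen in 10.4%, 7.28%, 5.63% and 10.6%.

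Outside endothelial-like cells, Pdgfb was densest in microglia-like cells. Their Pdgfb level was 32.2, 22.1, 19.6 and 22.1 per 10000, and they held 9.56% of all Pdgfb transcripts as 3.36% of the cells. Of the 1562, 1671, 1493 and 1650 microglia-like cells with no transcript of the endothelial list, 49.3% (exact 95% interval 46.8 to 51.8), 33.1% (30.8 to 35.4), 23.6% (21.5 to 25.9) and 33.3% (31.0 to 35.6) had a Pdgfb transcript. In the same cells Rgs5, which endothelial-like cells also carry, was seen in 5.76%, 6.94%, 6.36% and 7.82%. Oligodendrocyte-like cells with no transcript of the endothelial list had Pdgfb in 3.31%, 1.83%, 1.55% and 2.55%, below the microglia-like cells in every section. Neuron-like cells chosen the same way had it in 13.6%, 8.99%, 6.47% and 11.1%, above the oligodendrocyte-like shares in every section. Their Pdgfb level was 4.30, 2.97, 2.70 and 3.75 per 10000, against 1.29, 0.817, 0.988 and 1.34. These neuron-like cells were also deeper, with medians of 303, 271, 224 and 276 transcripts against 225, 188, 131 and 167. The part of depth in these shares was not tested. Thinned to 76 transcripts per cell, with 322, 419, 526 and 489 shallower cells left out, all microglia-like cells had Pdgfb in 24.4%, 17.9%, 15.3% and 17.1%, also above the thinned oligodendrocyte-like shares.

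Endothelial-like cells with at least 1 transcript of an arterial marker were compared with those that had none, with the section as a block. Pdgfb stood at 72.1, 58.7, 51.0 and 75.7 per 10000 in the 776, 684, 655 and 931 cells with a marker and at 65.1, 53.3, 44.9 and 71.8 in the rest. It was higher with a marker in 4 of 4 sections, by a log2 fold of 0.22 (SE 0.04, adjusted p = 0.00268 by edgeR). In this comparison 26.1% of 345 genes were called, and all 7 genes described here were called, each higher in the cells with a marker. The mural genes differed more than Pdgfb did, with log2 folds of 0.41 for Rgs5, 0.46 for Cald1, 0.93 for Myl9, 0.96 for both Pdgfrb and Vtn, and 1.35 for Acta2. Cells with a marker were also deeper, with medians of 190, 171, 126 and 158 transcripts against 102, 97, 76 and 87. The Pdgfb call was not made by limma (adjusted p = 0.0644), within the striatum (log2 0.20, adjusted p = 0.0955 by edgeR) or with mixed cells kept (log2 0.045, adjusted p = 0.557 by edgeR). The Pdgfb contrast was not shown to differ between ages (log2 0.0087, SE 0.068), in a fit where edgeR called 0 of 361 genes and 10 had an unadjusted p under 0.05.

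Pdgfb in endothelial-like cells was also read by what lay next to them. In cells with a pericyte-leaning cell within 20 µm it was 65.2, 60.8, 50.9 and 70.0 per 10000, and in cells with no mural-like cell within 20 µm it was 68.4, 55.1, 47.0 and 73.8. Neither group was higher in all sections. Beside smooth muscle-leaning cells it was 51.4, 49.5, 22.6 and 51.1, lower in each section, but from only 19, 20, 30 and 26 cells, and it was not tested.

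The change from 2 to 18 months was first taken over all kept cells of a section, where fewer cells of a type and less RNA per cell cannot be told apart. Where both Aged sections are said to lie on 1 side of both Young ones, this is a description only. The share of all genes that do so was not counted. Of 383 genes 1.31% were called by edgeR, and 0 of the 7 genes were called by edgeR, DESeq2 or limma, nor had any an unadjusted p under 0.05. Rgs5 stood at 25.6, 32.6, 32.0 and 31.3 per 10000 (log2 Aged over Young 0.16, SE 0.19). Vtn stood at 9.74, 9.24, 13.4 and 9.73 (0.33, SE 0.21), where Aged 1 alone was high. Pdgfrb stood at 6.39, 5.18, 3.79 and 5.48 (-0.28, SE 0.22), where Aged 1 alone was low. The smallest adjusted p of the 7 was 0.767, for Vtn by edgeR. Acta2, Myl9, Cald1 and Pdgfb had log2 changes of -0.16, -0.07, 0.17 and -0.16.

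In mural-like cells 0.593% of 337 genes were called by edgeR, and 0 of the 7 genes were called by edgeR, DESeq2 or limma, while 2, 2 and 0 of them had an unadjusted p under 0.05. Vtn, at 421, 401, 574 and 544 per 10000, was higher in both Aged sections than in either Young one. Its log2 change was 0.46 (SE 0.11, adjusted p = 0.126 by edgeR). Acta2, at 504, 549, 390 and 396, was lower in both, a log2 change of -0.40 (SE 0.12, adjusted p = 0.208 by edgeR). With the replicate number as a block both passed, at adjusted p = 0.0017 for Vtn and 0.0061 for Acta2, though the numbers carry no known pairing. Vtn also passed without Young 2 (adjusted p = 0.0134 by edgeR), and Acta2 without Young 1 (log2 -0.53, adjusted p = 0.0339). Each was thus called in 2 of 15 alternatives, and Acta2 turned to 0.69 with the 7 genes kept in the clustering. In that setting the mural-named cluster held pericyte-side cells only. The cells rich in Acta2 (593 per 10000) fell in another cluster, named from the fibroblast list. The arterial list in mural-like cells, at 162, 184, 146 and 134 per 10000, was lower in both Aged sections too. So was the share of cells with 10 or more Acta2 transcripts, which counts raw transcripts per cell. Median depth of mural-like cells was also lower there, at 124, 131, 100 and 111 transcripts. The part of the arterial list, of this share and of depth in the Acta2 change was not tested.

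The other mural genes and Pdgfb lay closer to 0 in mural-like cells or varied more. Myl9 had a log2 change of -0.23 (SE 0.12, adjusted p = 0.490 by edgeR). Rgs5 had 0.13 (SE 0.16, adjusted p = 0.763 by edgeR) and passed once, without Young 2 (log2 0.35, adjusted p = 0.0481). Pdgfrb had -0.32 (SE 0.25, adjusted p = 0.668 by edgeR), which was 0.10 without Aged 1. Cald1 had 0.02 (SE 0.17) and Pdgfb -0.18 (SE 0.22), and for both the Young and Aged sections overlapped.

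The 2 genes called in mural-like cells both fell. Col4a2, a basement membrane collagen chain, stood at 31.8, 23.6, 11.7 and 13.3 per 10000, a log2 change of -1.12 (adjusted p = 0.0266 by edgeR). Alas2, a heme synthesis enzyme of red cell precursors, stood at 6.11, 8.72, 2.38 and 2.14, a log2 change of -1.71 (adjusted p = 0.0266 by edgeR). Col4a2 was not called without Young 1 (adjusted p = 0.120) or without Aged 2 (0.227), nor was Alas2 without Aged 2 (0.265), and neither was called with mixed cells kept (0.162 for both).

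In endothelial-like cells 2.39% of 377 genes were called by edgeR, and of the 7 genes only Pdgfrb was. It stood at 24.0, 17.1, 8.95 and 14.1 per 10000, a log2 change of -0.87 (SE 0.22, adjusted p = 0.00626 by edgeR). The call was made in 4 of 15 alternatives and by neither DESeq2 (adjusted p = 0.0669) nor limma (0.518). It was also lost without Young 1 (log2 -0.64, adjusted p = 0.615), without Young 2 (-1.06, 0.0731) and without Aged 1 (-0.57, 0.157), and it held without Aged 2 (-1.28, 0.00523). The summed level of the 6 mural genes in endothelial-like cells was 403, 435, 397 and 400 per 10000. Without Rgs5, which was most of that sum, the other 5 summed to 148, 136, 120 and 119, lower in both Aged sections, and their part in the Pdgfrb change was not tested.

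Pdgfb itself was not called in endothelial-like cells (log2 -0.07, SE 0.18, adjusted p = 0.909 by edgeR), and the Aged sections were the lowest and the highest of the 4. Leaving out 1 section moved its log2 change between -0.48 and 0.23. Myl9 had -0.43 (adjusted p = 0.347 by edgeR), with both Aged sections below both Young ones. Vtn had -0.28 (0.520), Acta2 0.37 (0.601), Cald1 -0.06 (0.921) and Rgs5 -0.04 (0.927). These 5 genes were not called by DESeq2 or limma either.

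**Figure D5:**
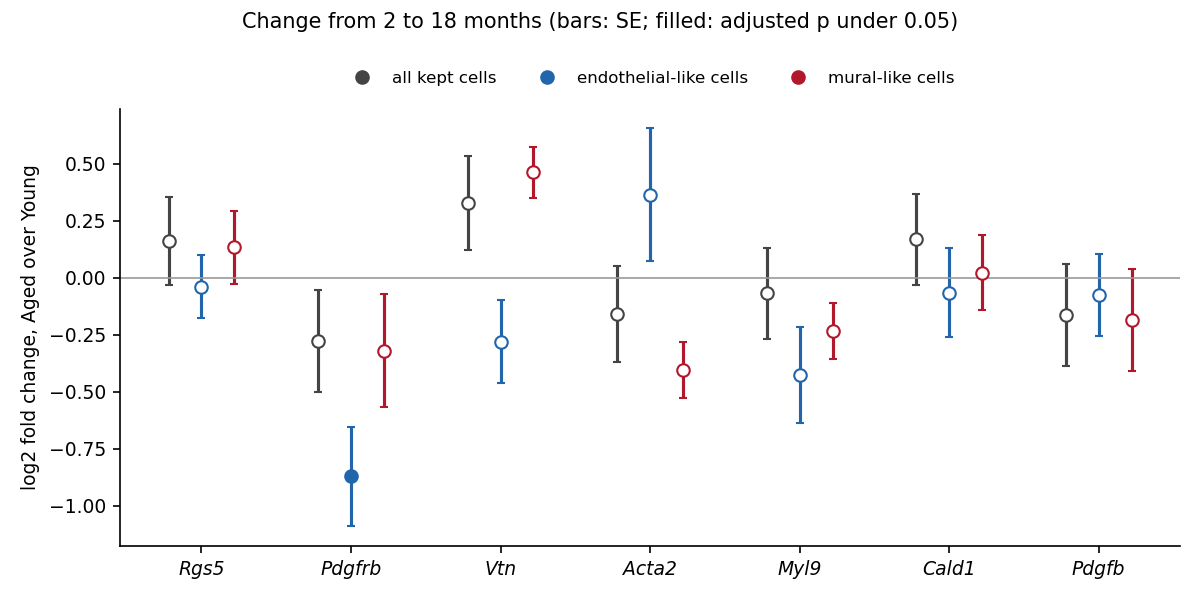
Log2 fold change, Aged over Young, of each gene in all kept cells, endothelial-like cells and mural-like cells, with bars for the standard error (n = 2 sections per age). Filled symbols have an adjusted p under 0.05 by edgeR, which holds only for Pdgfrb in endothelial-like cells.

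Whether the change with age differed between the classes was tested as an interaction, in which 0.545% of 367 genes were called by edgeR. Vtn was the 1 gene of the 7 called, with a log2 change 0.76 higher in mural-like than in endothelial-like cells (SE 0.10, adjusted p = 0.0450 by edgeR). Vtn was called in 6 of 13 alternatives. Without Young 2 the difference was 0.83 (adjusted p = 0.468) and without Aged 1 it was 0.92 (0.0765), and within the striatum it was 0.22 (0.925). Acta2 had the opposite sign, with -0.76 (SE 0.21, adjusted p = 0.259 by edgeR), and Pdgfrb had 0.51 (SE 0.15, 0.311). Acta2 was called without Young 1 (-1.06, 0.00729) and without TMM (-0.83, 0.0168). Rgs5, Myl9, Cald1 and Pdgfb lay between -0.09 and 0.20, and of these Pdgfb was called in 2 alternatives, with mixed cells kept (-0.55, 0.0171) and with the 7 genes kept in the clustering (-0.57, 0.0494).

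The same test was made between the leanings of mural-like cells. The Vtn difference between pericyte-leaning and smooth muscle-leaning cells was narrower in the Aged sections, by 0.62 on the log2 scale (SE 0.14, adjusted p = 0.000716 by edgeR, with 3.97% of 302 genes called). The smooth muscle-leaning cells of Aged 1 had 194 Vtn transcripts per 10000 against 64.4 to 101 in the others. The call did not hold in 3 of the 4 sets with a section left out. Without Aged 1 the value was 0.20, without Young 1 it was 0.75, without Young 2 it was 0.52 and without Aged 2 it was 1.05. Each of these fits leaves 1 section in an age group, so it cannot gauge the spread within that group. Acta2 had -0.35 (adjusted p = 0.415 by edgeR, with 3.93% called) and Myl9 -0.33 (0.301, with 0.656% called), where Myl9 was called without Aged 1 (log2 -0.48, adjusted p = 0.0253). Rgs5 had 0.01 (0.988, with 1.97% called). Pdgfrb had 0.02 (0.963) and Cald1 -0.09 (0.838), in fits where edgeR called 0.0% of genes and 30 of 308 and 35 of 305 had an unadjusted p under 0.05.

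The number of mural-like cells was read too. Mural-like cells were 25.7% (exact 95% interval 24.2 to 27.3), 26.3% (24.8 to 27.8), 26.1% (24.7 to 27.6) and 24.8% (23.4 to 26.3) of mural-like and endothelial-like cells together. The Aged mean was 0.54 points lower (exact permutation p = 0.667, where 2 sections against 2 cannot go below 0.3333). There were 24.0, 23.1, 25.2 and 23.1 mural-like cells and 69.5, 64.7, 71.3 and 70.1 endothelial-like cells per square millimetre (exact permutation p = 0.667 and 0.3333). These densities count only the cells used, and their Aged minus Young means were 0.581 and 3.55. With mixed cells kept these were -1.52 and -12.7, so both turned sign. The share of cells left out as mixed was lower in the Aged sections, and its part in these densities was not tested. Smooth muscle-leaning cells were 45.3%, 45.4%, 44.4% and 38.4% of mural-like cells, with Aged 2 lowest.

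The other genes of the pathway were taken from lists. Of the 4 PDGF ligands and receptors, Pdgfrb in endothelial-like cells was the only call in the 3 cell sets. Pdgfa, the other ligand, had log2 changes of 0.11, 0.19 and -0.06 in all cells, endothelial-like cells and mural-like cells, and Pdgfra, the other receptor and a gene of oligodendrocyte precursors, had 0.18, 0.38 and -0.17. Of 9 contractile and cytoskeletal genes, 1 fell in endothelial-like cells, where 2.39% of all genes were called, and edgeR called 0 in all cells or mural-like cells, where 1.31% and 0.593% were. That gene was Actn1, an actin cross-linker, at 10.5, 10.5, 5.30 and 6.90 per 10000 (log2 -0.82, adjusted p = 0.0285 by edgeR).

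Of 10 genes of the vessel wall matrix and its regulators, 1 rose and 1 fell in endothelial-like cells, beside 2.39% of all genes called there. Col4a2 fell there too, at 18.4, 14.2, 7.86 and 9.86 per 10000 (log2 -0.92, adjusted p = 0.00626 by edgeR), as it did in mural-like cells. Timp3, an inhibitor of matrix metalloproteinases, rose, at 128, 125, 204 and 182 (log2 0.56, adjusted p = 0.0178 by edgeR). In endothelial-like cells the calls of Actn1, Col4a2 and Timp3 did not all hold when a section other than Aged 2 was left out. Actn1 and Timp3 each lost the call in 11 of 15 alternatives and Col4a2 in 8, limma called none of the 3 and DESeq2 only Col4a2. Of 7 TGF-beta and vasoactive genes, edgeR called 0 in all cells, endothelial-like cells or mural-like cells, where 1.31%, 2.39% and 0.593% of all genes were called. The median log2 change of the 7 genes described here was -0.07 in all cells, -0.07 in endothelial-like cells and -0.18 in mural-like cells, beside -0.00, 0.01 and -0.01 over all genes tested.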

How the data were processed

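MERFISH was run by the authors on 10 µm coronal sections, decoded with MERLIN and segmented with Vizgen software. The deposited tables hold, per segmented cell, the transcript count of 383 genes, not normalized, with cell volume and position (signal columns deposited by the authors). A further deposited table of mean counts per cell was used only to check that each section matched its title. Names inside the Young files differ in number from the sample titles. Groups were taken from titles and ages. The 7 genes and all lists were chosen with earlier results of these data known.

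Cells with fewer than 10 genes or under 50 cubic micrometres were left out. Log values scaled to 10000 transcripts per cell were clustered without the 7 genes (15 principal components, 20 neighbours, resolution 0.08, non-neuronal sub-clusters at 0.3). A cluster was named where at least 3 markers of a class exceeded a fold of 1.5, and a cell with at least 3 detected markers of a non-vascular class was left out as mixed (the endothelial and mural lists were not used for this). Sections, not cells, were the replicates. Counts were summed per section and class and tested with edgeR 4.0.16 (TMM, filterByExpr, quasi-likelihood F test, Benjamini-Hochberg over all genes tested, threshold 0.05), with DESeq2 1.42.0 and limma 3.58.1 as alternatives, in R 4.3.3. Clustering and descriptions used Python 3.11.15, scikit-learn 1.9.0, igraph 0.11.9 and scipy 1.17.1. The scripts for the tests were checked on simulated counts. Genes named beside the 7 were Pdgfa and Pdgfra, list genes past the threshold in the age comparisons, the 3 genes most like each of the 7, and up to 3 genes in each direction called in mural-like cells. Intervals cover counting error only.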

Additional observations from a re-analysis of the deposited data

Results flagged for a closer look

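Differences between cell groups in the change with age drew attention in 3 cases. In mural-like minus endothelial-like cells the log2 change of Vtn differed by 0.76 (adjusted p = 0.0450 by edgeR). Tgfb3, a TGF-beta ligand gene that lies outside the rule for named genes and was chosen after its values were seen, differed by -1.27 in the same test (SE 0.18, adjusted p = 0.0450 by edgeR). Its level was 36.9, 32.0, 22.0 and 24.1 per 10000 in mural-like cells and 1.48, 1.31, 2.39 and 2.37 in endothelial-like cells, and it was not called without Young 2 (adjusted p = 0.468). In smooth muscle-leaning minus pericyte-leaning cells the log2 change of Vtn differed by 0.62 (adjusted p = 0.000716 by edgeR), and by 0.20 without Aged 1.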

How the results depend on the processing

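All 6 mural genes kept their call and direction between smooth muscle-leaning and pericyte-leaning cells under all 11 alternatives. The age comparisons were less stable. Of 383, 377 and 337 genes tested by edgeR in all, endothelial-like and mural-like cells, 5, 9 and 2 were called, and 2 in the test between classes. With limma these 4 counts were 2, 0, 0 and 0, without TMM the counts in all cells, endothelial-like cells and between classes were 1, 0 and 13, and within the striatum the 4 counts were 0, 2, 1 and 0. DESeq2 called 1 gene in endothelial-like cells. With mixed cells kept 0 genes were called in mural-like cells and 26 between classes. With the 7 genes kept in the clustering the counts were 0 in endothelial-like cells, 1 in mural-like cells and 4 between classes, and a marker rule gave 5 between classes. That rule calls a vascular cell mural-like where its mean standardized mural markers, the tested gene left out, exceed its endothelial markers. Leaving out 1 section gave 0 to 1, 0 to 19, 0 to 4 and 0 to 9. The Pdgfb difference by arterial marker lost its call with limma (0.22), mixed cells kept (0.045) and within the striatum (0.20). The Aged minus Young share of mural-like cells was 0.999 points with mixed cells kept, -5.41 with the 7 genes kept in the clustering and 1.77 by the marker rule. With the 7 genes kept, the mural-named cluster held pericyte-side cells only. Precision was limited by 2 sections per age and by the lower depth of Aged 1.

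Several small log2 changes turned sign. In all cells Myl9 was 0.067 within the striatum. In endothelial-like cells Rgs5 was 0.011 without TMM, 0.039 with mixed cells kept and 0.080 within the striatum, Vtn was 0.037 within the striatum, and Acta2 was -0.067 with mixed cells kept. There Cald1 was 0.19 within the striatum, 0.20 with the 7 genes kept, 0.11 with finer sub-clusters and 0.081 by the marker rule, and Pdgfb was 0.12 within the striatum and 0.11 with the 7 genes kept. In mural-like cells Rgs5 was -0.052 with mixed cells kept, Acta2 was 0.69 and Myl9 0.020 with the 7 genes kept, and Cald1 was -0.011 with DESeq2, -0.027 with mixed cells kept and -0.071 by the marker rule. Between classes Rgs5 was -0.15 with mixed cells kept, Acta2 0.045 with the 7 genes kept and Myl9 -0.0089 within the striatum, while Cald1 was -0.045 with mixed cells kept, -0.12 within the striatum, -0.32 with the 7 genes kept, -0.043 with finer sub-clusters and -0.23 by the marker rule. The cause was not tested.

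Leaving out 1 section turned these signs too. In all cells Rgs5 ran from -0.037 to 0.37, Acta2 from -0.38 to 0.086 and Pdgfb from -0.44 to 0.047. In endothelial-like cells Rgs5 ran from -0.18 to 0.12, Cald1 from -0.18 to 0.029 and Pdgfb from -0.48 to 0.23. In mural-like cells Rgs5 ran from -0.14 to 0.35, Pdgfrb from -0.97 to 0.096 and Cald1 from -0.25 to 0.22. Between classes Rgs5 ran from -0.0092 to 0.39, Cald1 from -0.030 to 0.23 and Pdgfb from -0.22 to 0.11. Between leanings the age difference of Rgs5 ran from -0.055 to 0.062 and of Pdgfrb from -0.14 to 0.14, in alternatives chosen after seeing the data.

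With the replicate number as a block, 4, 0 and 5 genes were called in all, endothelial-like and mural-like cells. Deviations of sections with the same number had r = -0.27 across 383 genes, a single value since 2 sections per age deviate from their mean by the same amount, and no label gives the number as a pairing. A crossed pairing, chosen after seeing the data, called 6, 4 and 3.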

Other observations

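Neuroblast-like cells, 1.43%, 1.49%, 0.591% and 0.682% of kept cells in Young 1, Young 2, Aged 1 and Aged 2, were set in no comparison. Their Acta2 level was 18.8, 20.8, 37.4 and 47.2 transcripts per 10000 and their Cald1 level 24.1, 27.0, 43.2 and 43.1. For both genes the Aged values lay above the Young values, and the difference was not tested. This cluster was also high for the 3 ependymal markers, with a median fold of 5.50 beside 38.5 for the 4 neuroblast markers. A change in its mix of cells was not tested either.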
